A study of Mus musculus with 4 samples.

Results

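The genes described here are Myrf, St18, Myt1, Myt1l, Zfp488, Zfp365, Zfp536, Zeb2 and Carhsp1. They are listed as regulators that come up as oligodendroglial progenitor cells (OPCs) turn into myelin-forming oligodendrocytes (OLs). They were chosen by symbol, and each of the 9 symbols names exactly 1 of the 53465 genes counted in RNA-Seq libraries of primary (1°) mouse oligodendroglial cultures (OGCs). The libraries came from 2 preparations of ctrl cells (genotype Zfp276 flox/flox) and 2 of Zfp276cko cells (genotype Sox10::Cre tg; Zfp276 flox/flox), all from forebrain at P2 to P4. In the floxed allele, which both genotypes carry, exons 2 to 5 of the zinc finger gene Zfp276 are flanked by loxP sites, and Cre is expressed from Sox10 regulatory sequences and so acts in oligodendroglial cells of the CNS. Per the study's methods, each preparation pooled 3 mice, whose background was mixed (C3H x C57Bl/6J). A Rosa26 stopfloxtdTomato reporter allele was crossed into the mice used for culture. By the same methods, OPCs were shaken off mixed glia and depleted of microglia. The cells then differentiated for 3 days (3ddiff) with CNTF in place of the mitogens. Cre itself is present in Zfp276cko cells alone, so an effect of Cre and an effect of the deletion cannot be told apart. All libraries are of a single stage, so the rise of these genes during differentiation is background and was not measured here. The question put to the data was how the loss of Zfp276 left the regulators of the differentiation program.

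Differentiating OLs replace a proliferative program by a myelin program, and both steps are under transcriptional control. Myrf is made as a membrane protein that cuts itself, releases its N-terminal part into the nucleus and switches on myelin genes together with Sox10. The members of the Myt1 family (Myt1, Myt1l and St18) bind DNA through clustered CCHC zinc fingers and recruit Sin3 and histone deacetylase corepressors. Zeb2, also called Sip1, is a Smad-binding repressor with zinc fingers at either end, and in OLs it counters BMP and Wnt signals that hold back differentiation.

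Counted reads per library came to between 21068322 and 26599809, and 15766 genes passed the filter on low counts, the 9 regulators among them. Zfp276 had normalized counts of 1648 and 2230 in the ctrl pair against 490 and 503 in the Zfp276cko pair, which is 25.6% of the ctrl mean, in the direction of the labels (log2 fold change −1.97, adjusted p = 0.0962 in edgeR and 1.17e-14 in DESeq2). The count per gene also includes exons outside the floxed part, and 16.6% of the exon length of Zfp276 lies under Fanca on the opposite strand. Sox10, which marks the whole lineage, had 18135 and 20744 normalized counts in the ctrl pair against 17805 and 18611 in the Zfp276cko pair. The cultures held markers of both ends of the lineage, with 96326 to 158143 counts of Mbp, a structural protein of compact myelin, and 8464 to 13775 counts of Pdgfra, the mitogen receptor of OPCs. The ctrl replicates stood apart from each other. Among the 14324 genes that averaged 20 normalized counts or more, a 2-fold or larger gap separated the ctrl replicates for 12.7% and the Zfp276cko replicates for 0.307%. Neuron, microglia and fibroblast markers were part of this gap. The summed level of 11 neuron genes was 31.2 CPM (counts scaled to library size) in ctrl replicate 1, 219 in ctrl replicate 2, and 116 and 126 in Zfp276cko cells. The 12 microglia genes summed to 2464 and 1339 CPM in ctrl and to 2014 and 2086 CPM in Zfp276cko cells. The 10 tested fibroblast and vessel genes summed to 379 CPM in ctrl replicate 1 and to between 21.7 and 26.4 CPM in the other libraries, with Cldn5 at 0 throughout. The 9 tested astrocyte genes summed to 1799 to 2061 CPM, with Gjb6 at 0 in every library, but single genes differed between the ctrl replicates in either direction. Normalized counts of Gfap were 17641 in ctrl replicate 1 against 8463 in ctrl replicate 2, and those of Slc1a3 were 2674 against 6747. In bulk samples, fewer cells of a type and less RNA per cell cannot be told apart.

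Of the 9 regulators, 8 had both Zfp276cko libraries below both ctrl libraries, and 0 had both above. Over all tested genes the share was 23.7% below and 26.8% above. Myrf, St18 and Zfp365 stood at 54.5%, 55.0% and 58.9% of their ctrl means. Zeb2 and Myt1 stood at 91.9% and 97.9%, and Myt1l had groups that overlapped. In edgeR's quasi-likelihood test, which compared the genotypes with a shared estimate of the spread, no regulator passed an adjusted p (Benjamini-Hochberg over all tested genes) of 0.05 together with an absolute log2 fold change of 0.6 and a mean of 20 normalized counts. The share of all genes called was 0% lower and 0% higher, and the smallest adjusted p of any gene was 0.0725. With p left unadjusted and the other thresholds kept, 3 regulators were lower and 0 higher, beside 3.02% of all genes lower and 5.11% higher. DESeq2, the tool of the study, called the same 3 regulators lower, and over all genes it called 2.27% lower and 3.02% higher. With 2 libraries against 2, an exact permutation test of a single gene cannot give a two-sided p below 0.333.

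**Figure D1:**
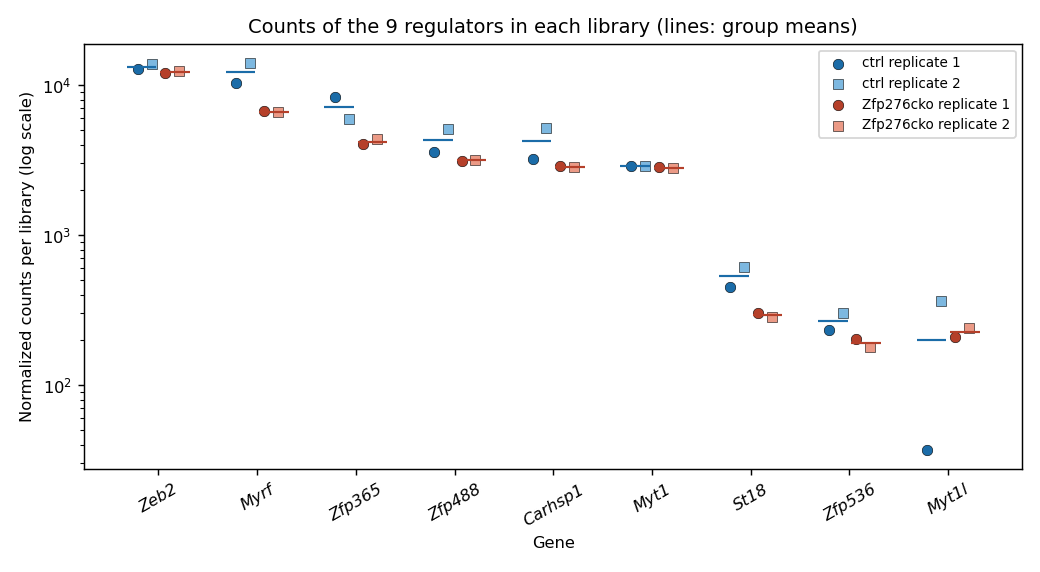
Normalized counts (log scale) of each of the 9 regulators in each of the 4 libraries, with circles for replicate 1, squares for replicate 2 and lines for the group means of 2 libraries. The Zfp276cko pairs lie within 1.16-fold for every gene, the ctrl pairs of Myrf, St18 and Zfp365 lie clearly above them, and ctrl replicate 1 of Myt1l lies far below the other 3 libraries.

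Myrf, the activator of the myelin genes, is encoded on chromosome 19 of mm10 (10208272 to 10240748, minus strand) with 27 exons in its longest coding transcript, and overlaps no other annotated gene. Its normalized counts were 10348 and 13968 in the ctrl pair against 6691 and 6572 in the Zfp276cko pair. Both Zfp276cko libraries were lower than the lower ctrl library, and the gap between the groups (1.83-fold between the means) exceeded the 1.35-fold gap between the ctrl replicates. Its log2 fold change was −0.87 (SE 0.179, 95% interval −1.36 to −0.387), with an adjusted p of 0.176 in edgeR and of 0.00105 in DESeq2. Over all fits that used the 4 libraries the adjusted p of Myrf ranged from 0.00105 to 0.249.

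Tmem98, the membrane protein that binds Myrf and holds back its cleavage, had normalized counts of 452 and 540 in the ctrl pair against 338 and 353 in the Zfp276cko pair (edgeR log2 fold change −0.52, adjusted p = 0.263). The relative Myrfl did not pass the filter, with 2 to 10 counts per library. A list of Myrf partners and of myelin genes that depend on Myrf held 19 tested genes. At an unadjusted p up to 0.05 with the fold and mean thresholds, 9 were lower and 0 higher. Over all genes these shares were 3.02% and 5.11%. DESeq2 called 8 of the list lower, beside 2.27% of all genes. Both Zfp276cko libraries were below both ctrl libraries for 13 of the 19 and above for 2. Over all tested genes these shares were 23.7% and 26.8%. The median log2 fold change of the 19 was −0.71, beside −0.0013 over all tested genes. Mog, a glycoprotein of the outer myelin surface, had 1996 and 1794 normalized counts in the ctrl pair against 990 and 1010 in the Zfp276cko pair, so that the groups were well apart (edgeR log2 fold change −0.92, adjusted p = 0.103). Mag, the adhesion protein on the axonal side of myelin, varied more in ctrl cells, with 11060 and 18911 against 8380 and 8071. Ndrg1 was above both ctrl libraries, with 2209 and 2239 against 1869 and 1548 normalized counts. Without ctrl replicate 1, 12 of these genes were called lower and the median was −0.84. Without ctrl replicate 2, 7 were called lower and 1 higher, and the median was −0.44.

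St18, a Myt1 family factor also known as Myt3, is encoded on chromosome 1 (6487231 to 6860940, plus strand) and spans 374 kb. It had 452 and 613 normalized counts in the ctrl pair against 302 and 284 in the Zfp276cko pair. Both Zfp276cko libraries were again below both ctrl libraries. The log2 fold change was −0.86 (SE 0.204, 95% interval −1.41 to −0.308), with an adjusted p of 0.195 in edgeR and of 0.0230 in DESeq2, and a range from 0.0230 to 0.347 over the fits with 4 libraries.

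Myt1, the founding member of the family and a factor of OPCs and young OLs, is encoded on chromosome 2 (181763332 to 181827797, plus strand). Its 4 values lay within a few percent of each other, with 2896 and 2865 normalized counts in the ctrl pair against 2836 and 2805 in the Zfp276cko pair. The groups did not overlap, yet the log2 fold change was −0.03 with a 95% interval from −0.256 to 0.196 (edgeR adjusted p = 0.893).

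Myt1l, the family member known for holding neurons in their identity, is encoded on chromosome 12 (29528384 to 29923213, plus strand) and is the longest of the 9 genes at 395 kb. It had 36.8 normalized counts in ctrl replicate 1, 365 in ctrl replicate 2, 208 in Zfp276cko replicate 1 and 241 in Zfp276cko replicate 2. The ctrl replicates were 9.91-fold apart, further than in 98.4% of tested genes, and the Zfp276cko libraries lay between them. The log2 fold change of 0.16 had a 95% interval from −2.63 to 2.95 (edgeR adjusted p = 0.960), and limma voom gave 0.92. Without ctrl replicate 1 the log2 fold change of Myt1l was −0.70, and without ctrl replicate 2 it was 2.59.

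Neuron genes went with Myt1l from library to library. Rbfox3, the nuclear antigen NeuN of neurons, had 12 and 175 counts in the ctrl pair against 117 and 128 in the Zfp276cko pair. Slc32a1, the vesicular GABA transporter, had 1 and 363 counts in the ctrl pair against 195 and 202 in the Zfp276cko pair. The GABA-synthesizing enzyme Gad1 had 66 and 1779 against 1017 and 1167 counts. Of the 12 listed neuron genes, Elavl4 did not share this pattern with its 337 and 248 against 274 and 371 counts, Nefl and Nefm had 27 to 39 and 55 to 82 counts, and the glutamate transporters Slc17a6 and Slc17a7 had at most 16. The share of neurons in the signal of Myt1l was not tested. The genes nearest to Myt1l in their pattern over the 4 libraries, named after their values were seen, were Celf3, Syt5 and Rbfox3, at root mean square distances of 0.0258, 0.0701 and 0.0752 on the log2 scale. Of 11 tested neuron genes 0 were lower and 0 higher by edgeR with or without adjustment of p or by DESeq2, and their median log2 fold change was −0.11, against 0.97 with limma voom. Without ctrl replicate 1, 5 of them were called lower, and without ctrl replicate 2, 7 were called higher.

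**Figure D2:**
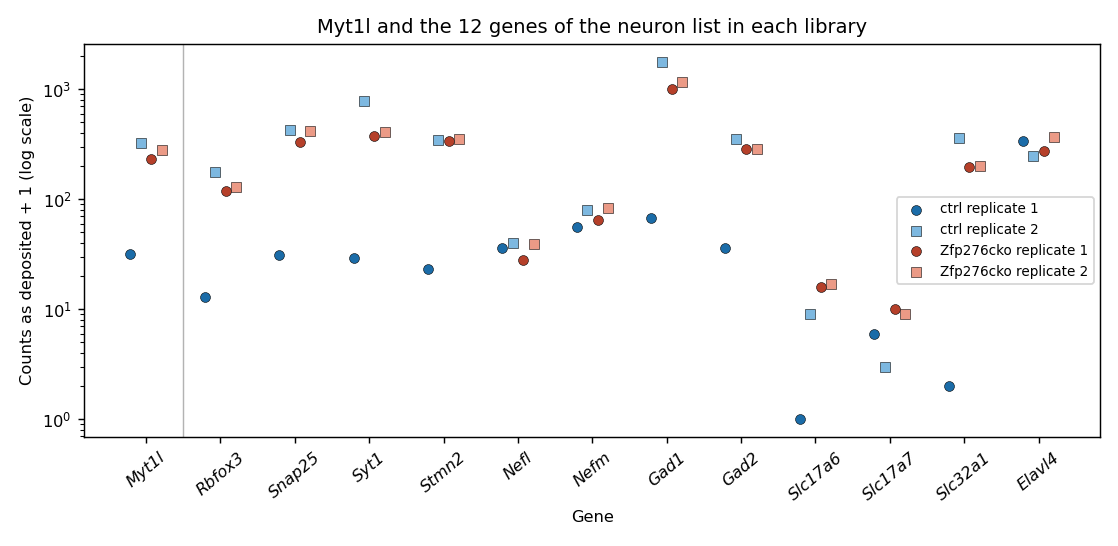
Deposited counts plus 1 (log scale) of Myt1l and the 12 genes of the neuron list in each library, ctrl in blue and Zfp276cko in red. Ctrl replicate 1 lies far below the other libraries for Myt1l (31 against 230 to 324 counts) and for Rbfox3, Snap25, Syt1, Stmn2, Gad1, Gad2 and Slc32a1, and not for Nefl, Nefm and Elavl4.

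The Myt1 family as a whole was led by Myt1. Per kilobase of exon, Myt1 made up between 76.7% and 86.5% of the family's level in each library. St18 contributed 14.7% and 18.3% in the ctrl pair against 10.3% and 9.75% in the Zfp276cko pair, and Myt1l contributed from 0.552% in ctrl replicate 1 to 5.01% in ctrl replicate 2. The corepressors and repressors listed beside the family had log2 fold changes between −0.19 and 0.21. Among 8 tested genes, which include Sin3a, Sin3b, Hdac1, Hdac2 and Rest, 0 were lower and 0 higher by edgeR with or without adjustment of p or by DESeq2, and the median log2 fold change was 0.06. Sin3b, known to bind the family, had 2168 and 2572 normalized counts in the ctrl pair against 2640 and 2425 in the Zfp276cko pair, with overlapping groups.

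Zfp488, a zinc finger corepressor that binds Olig2 and promotes OL differentiation, is encoded on chromosome 14 (33967070 to 33978764, minus strand) with 2 exons. It had 3559 and 5084 normalized counts in the ctrl pair against 3141 and 3178 in the Zfp276cko pair. Ctrl replicate 1 was much nearer to the Zfp276cko libraries than ctrl replicate 2 was. Its log2 fold change was −0.45 (95% interval −0.986 to 0.0822, edgeR adjusted p = 0.376, DESeq2 adjusted p = 0.329). Leaving out ctrl replicate 1 gave −0.69, and leaving out ctrl replicate 2 gave −0.19. Olig1 and Olig2, bHLH factors of the lineage, were lower in both Zfp276cko libraries. Olig1 had 31743 and 28857 normalized counts in the ctrl pair against 16810 and 16487 in the Zfp276cko pair, and Olig2 had 13537 and 12402 against 8692 and 8392. Their edgeR adjusted p was 0.123 and 0.162, and DESeq2 called both lower.

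Zfp365, also called DBZ, is a zinc finger protein that binds the scaffold protein DISC1 and is encoded on chromosome 10 (67886103 to 67912662, minus strand). Its normalized counts were 8279 and 5982 in the ctrl pair against 4054 and 4347 in the Zfp276cko pair. Unlike Myrf it was highest in ctrl replicate 1, and both ctrl libraries still exceeded both Zfp276cko libraries. Its log2 fold change was −0.76 (SE 0.189, 95% interval −1.28 to −0.250), with an adjusted p of 0.207 in edgeR and of 0.0178 in DESeq2, and a range from 0.0178 to 0.318 over the fits with 4 libraries. Without ctrl replicate 1 it was −0.51, under the fold threshold.

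Zfp536, a repressor that holds back neuronal differentiation, is encoded on chromosome 7 (37472135 to 37773641, minus strand) and was one of the weakly expressed regulators. It had 232 and 300 normalized counts in the ctrl pair against 202 and 180 in the Zfp276cko pair. The groups did not overlap, and the log2 fold change was −0.48 (95% interval −1.07 to 0.113, edgeR adjusted p = 0.393, DESeq2 adjusted p = 0.484). Leaving out ctrl replicate 1 gave −0.65, and leaving out ctrl replicate 2 gave −0.29.

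Carhsp1, which like Myrf is not a zinc finger protein, has a cold shock domain, binds RNA and is encoded on chromosome 16 (8658580 to 8672155, minus strand) in 4 exons. It had 3226 and 5208 normalized counts in the ctrl pair against 2866 and 2835 in the Zfp276cko pair. The ctrl replicates were 1.61-fold apart, and ctrl replicate 1 lay close above the Zfp276cko pair. The log2 fold change was −0.57 (95% interval −1.25 to 0.12, edgeR adjusted p = 0.385, DESeq2 adjusted p = 0.287). Leaving out ctrl replicate 1 gave −0.87, and leaving out ctrl replicate 2 gave −0.19. The relative Csdc2, a cold shock domain protein of the same family, had 324 and 698 normalized counts in the ctrl pair against 882 and 822 in the Zfp276cko pair, with an edgeR adjusted p of 0.449.

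Zeb2 is encoded on chromosome 2 (44983632 to 45117395, minus strand), and 29 transcripts are annotated. It had the highest mean normalized count of the 9 genes in both genotypes, with 12755 and 13735 in the ctrl pair against 12027 and 12325 in the Zfp276cko pair. All 4 values were close, the lower ctrl library being only just above the higher Zfp276cko library. Its log2 fold change was −0.12 with a 95% interval from −0.419 to 0.176 (edgeR adjusted p = 0.645, DESeq2 adjusted p = 0.782). The share of microglia and other cell types in the counts of Zeb2 was not tested. The antisense gene Zeb2os covers 3.27% of the exon length of Zeb2 and had 100 to 208 counts per library. The strand setting of the counting is not given in the sources used here, and without it reads of the overlap could belong to either gene.

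Around Zeb2, 20 listed partners and pathway genes were tested, and 0 were lower and 2 higher at an unadjusted p up to 0.05 with the fold and mean thresholds. DESeq2 called 0 lower and 1 higher, and the median log2 fold change was −0.04. Over all genes the shares were 3.02% lower and 5.11% higher by unadjusted p, and 2.27% and 3.02% by DESeq2. Both Zfp276cko libraries were below both ctrl libraries for 7 of the 20 genes and above for 5. Over all tested genes these shares were 23.7% and 26.8%. Id2, an inhibitor of bHLH factors that BMP signals induce, had 3227 and 3125 normalized counts in the ctrl pair against 4570 and 5211 in the Zfp276cko pair (edgeR log2 fold change 0.62, adjusted p = 0.153). Smad9, a transducer of BMP signals, had 316 and 182 against 467 and 446 (0.87, adjusted p = 0.305). Smad3, which carries TGF-β signals, and Ctbp1, a corepressor bound by Zeb2, were below both ctrl libraries with log2 fold changes of −0.30 each. The inhibitory Smad7, a known target of Zeb2 in OLs, had 591 and 733 normalized counts in the ctrl pair against 411 and 511 in the Zfp276cko pair (edgeR log2 fold change −0.52, adjusted p = 0.319). The paralog Zeb1 had between 3843 and 4047 normalized counts in all libraries.

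**Figure D3:**
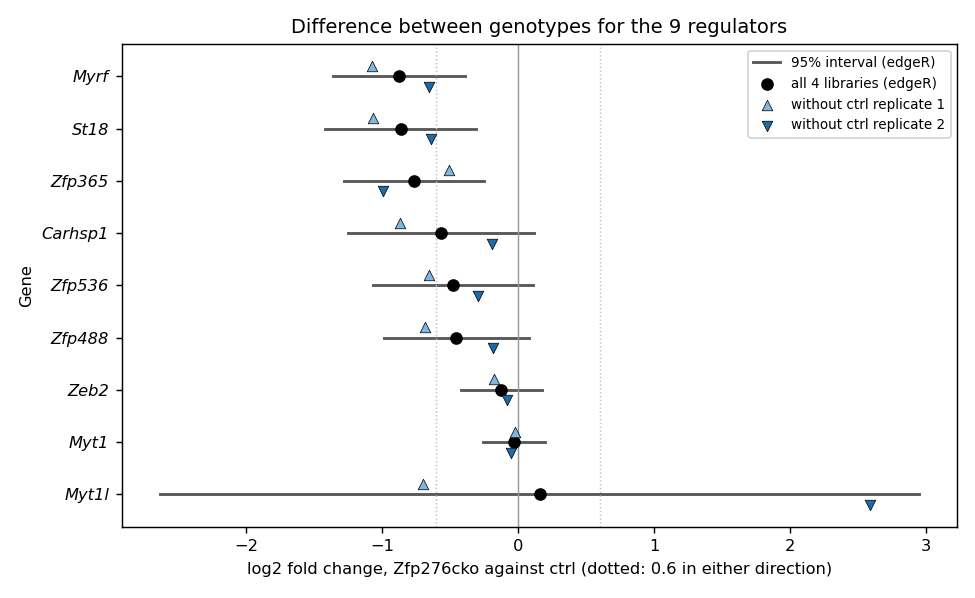
Log2 fold change of Zfp276cko against ctrl cells for the 9 regulators, with edgeR's 95% interval over 4 libraries (black) and the value without ctrl replicate 1 or without ctrl replicate 2 (triangles). The intervals of Myrf, St18 and Zfp365 lie wholly below 0, those of the other 6 include 0, and Myt1l moves from −0.70 to 2.59 with the ctrl library left out.

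The log2 fold changes turned on the ctrl library left out. Without ctrl replicate 1 and without ctrl replicate 2 they were −1.07 and −0.66 for Myrf, and −1.06 and −0.64 for St18. For Zfp365 they were −0.51 and −0.99, for Carhsp1 −0.87 and −0.19, and for Myt1l −0.70 and 2.59. In these fits the lone ctrl library is assumed to vary like the Zfp276cko pair. That assumption is poor, since a 2-fold gap was found for 0.307% of genes in the Zfp276cko pair and 12.7% in the ctrl pair. Calls from these fits are therefore not given. Both fits share the Zfp276cko pair, so they are not independent of each other.

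The 9 genes fell into a few patterns over the libraries. With log2(CPM + 0.5) centred on each gene's mean, Myrf and St18 differed by a root mean square of 0.0276, the smallest distance among the 36 pairs. St18 was the fifth nearest of 14323 genes to Myrf, after Frmd5 (0.0158), Pde3a (0.0161), Shc3 (0.0165) and Epb41l2 (0.0265). Frmd5 had 2188 and 2985 normalized counts in the ctrl pair against 1454 and 1413 in the Zfp276cko pair, close to a scaled copy of the values of Myrf. Zfp488 was near Carhsp1 (0.0790) and Zfp536 (0.0810). Zeb2 and Myt1, both nearly flat, were 0.0650 apart. Zfp365 stood at least 0.326 from each of the others, and Myt1l at least 1.04. These distances rest on 4 libraries that also differ in depth and in the marker genes given above, and they are descriptions only.

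**Figure D4:**
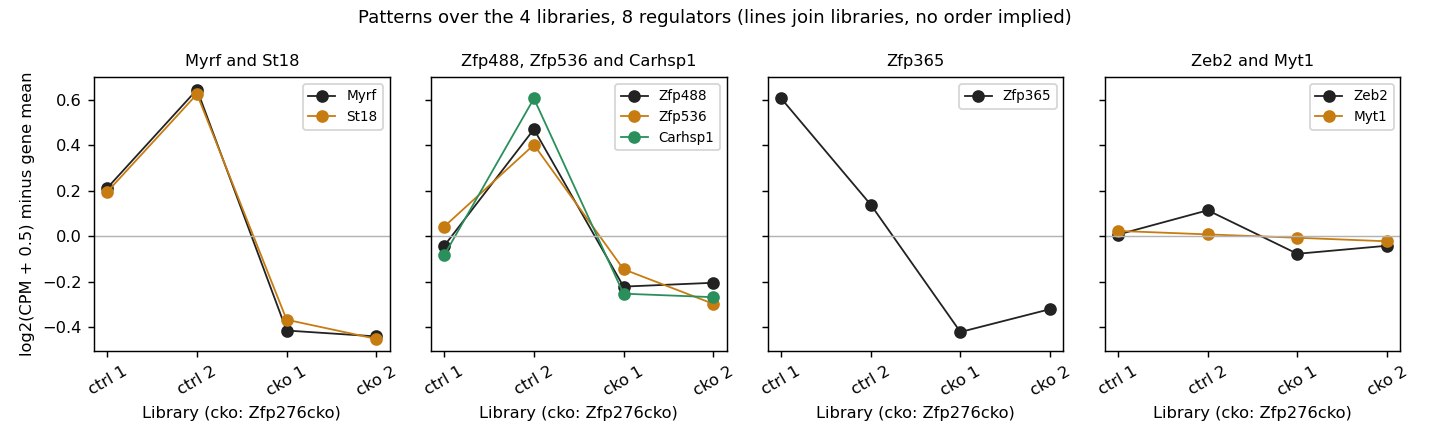
Log2(CPM + 0.5) minus the gene's mean in each library for 8 of the regulators (Myt1l, which would exceed the axis, is left out), grouped by shape, with lines that only join the libraries of a gene. Myrf and St18 follow each other closely with ctrl replicate 2 highest, Zfp365 is highest in ctrl replicate 1, and Zeb2 and Myt1 stay near 0.

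Levels between genes were compared as CPM per kilobase of annotated exon (RPKM). In ctrl cells Carhsp1 (62.4 ± 20.7 RPKM, SD, n = 2), Myrf (60.1 ± 12.6) and Zfp365 (58.0 ± 13.2) led, and their order did not hold beyond the spread of the replicates. Zfp488 followed at 42.5 ± 10.6 RPKM, with libraries that overlapped those of Zfp365, and below it without overlap were Zeb2 at 28.1 ± 1.47 and Myt1 at 16.9 ± 0.128. St18 (3.49 ± 0.745), Zfp536 (1.22 ± 0.224) and Myt1l (0.606 ± 0.70) were far lower, and the last of these did not differ from Zfp536 beyond its spread. The median over 15495 genes with a length was 5.23 RPKM, so 6 regulators lay above it and 3 below. In Zfp276cko cells the order began with Carhsp1 at 42.2 RPKM, Zfp365 at 34.1 and Myrf at 32.8, and the libraries of Zfp365 and Myrf overlapped. Levels per length depend on the transcripts counted. With the longest transcript as length, 4 of the 9 ranks in ctrl cells were kept. Myrf then led in ctrl cells at 90.7 RPKM, and Zeb2 took the fourth rank at 61.4. In Zfp276cko cells Zeb2 then led at 56.5 RPKM, before Myrf at 49.4 and Carhsp1 at 42.2.

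**Figure D5:**
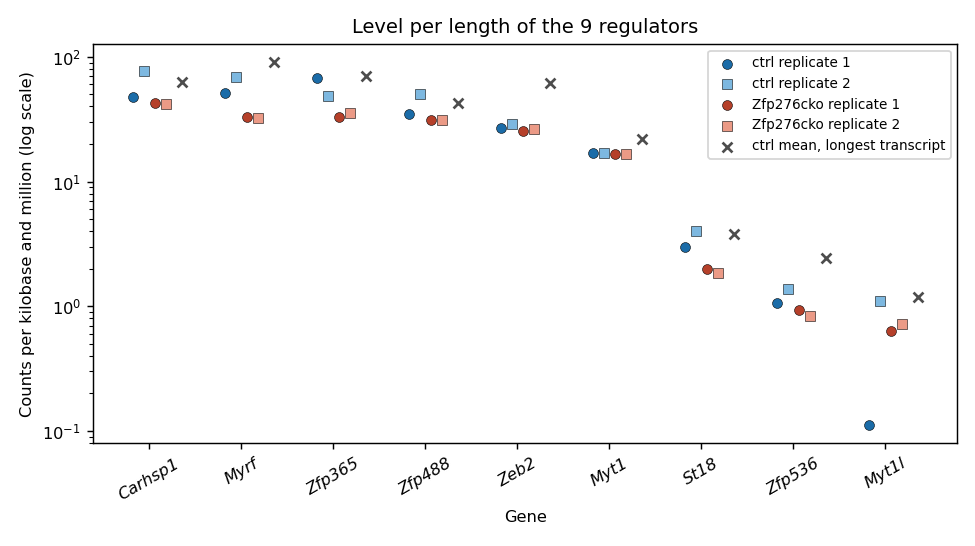
Level per length (RPKM, log scale) of the 9 regulators in each library, ordered by the ctrl mean, with crosses for the ctrl mean when the longest transcript is the length. In all libraries 6 of the genes lie between 16.5 and 77.1 RPKM, and St18, Zfp536 and Myt1l reach at most 4.01.

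The sequence upstream of the starts was searched for the short words that these factors are known to bind. RefSeq windows of GRCm38.p6, from 250 bases before to 50 bases after a start, were at hand for 7 of the 9 genes (16 windows; Myrf and St18 had no entry), and both strands were read. The word AAAAGGGCT is the core sequence that the study derived from a single Zfp276 site, that of Wnt7a. It occurred in 0 of the 7 genes and in 0.35% of 32851 mouse windows. From all its sites the study gave a looser consensus, with variable outer letters and a single mismatch tolerated near the end. That consensus was not searched for, so the count of 0 covers the exact word only. The study's sites lay in enhancers outside such windows. The shorter run AAAGGG, which is contained in AAAAGGGCT, occurred in 1 of the 7 genes (Zeb2) and in 23.8% of mouse genes. The Myrf word CTGGCAC occurred in 1 of the 7 (Zfp365) and in 5.73% of mouse genes. The Myt1 word AAGTTT occurred in 2 of the 7 (Myt1 and Zeb2) and in 16.3% of mouse genes. The SoxE word ACAAAG occurred in 3 (Myt1, Zeb2 and Carhsp1) and in 21% of mouse genes. The Zeb word CACCTG occurred in 0 and in 22.6%. A match is a description of letters and not a bound site.

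The 250 bases before the start are shown for a gene with the Myrf word that DESeq2 called lower (Zfp365), for the gene with the shorter Zfp276 run (Zeb2), and for a nearly flat gene with the word of its own family (Myt1). Letters are 5′ to 3′ on the gene's strand, with the matched words in capitals. The window of Zfp365 is chr10:67912663-67912912 (minus strand, 61.6% GC), that of the most upstream start of Zeb2 is chr2:45117443-45117692 (minus strand, 49.6% GC), and that of the first start of Myt1 is chr2:181763082-181763331 (plus strand, 54.8% GC).
Zfp365: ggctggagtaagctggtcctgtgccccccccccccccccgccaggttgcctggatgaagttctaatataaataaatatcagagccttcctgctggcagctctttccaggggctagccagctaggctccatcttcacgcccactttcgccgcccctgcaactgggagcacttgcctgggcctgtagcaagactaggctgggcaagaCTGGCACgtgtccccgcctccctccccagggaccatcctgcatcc
Zeb2: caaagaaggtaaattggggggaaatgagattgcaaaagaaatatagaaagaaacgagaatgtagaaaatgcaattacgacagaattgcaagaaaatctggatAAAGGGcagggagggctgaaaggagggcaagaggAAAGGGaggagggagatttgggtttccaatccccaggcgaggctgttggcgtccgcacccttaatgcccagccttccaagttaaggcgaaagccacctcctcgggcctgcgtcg
Myt1: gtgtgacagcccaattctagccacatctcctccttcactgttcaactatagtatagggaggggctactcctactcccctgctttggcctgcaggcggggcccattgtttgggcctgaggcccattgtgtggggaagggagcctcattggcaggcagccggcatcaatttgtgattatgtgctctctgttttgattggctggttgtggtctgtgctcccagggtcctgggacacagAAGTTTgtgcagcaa
Counted from the start, the Myrf word of Zfp365 begins at −45, the runs AAAGGG of Zeb2 begin at −148 and −114, and the word AAGTTT of Myt1 begins at −15. With its flanks the run at −114 reads gAAAGGGag, which is the looser Zfp276 consensus with a single mismatch near its end. The run at −148 reads tAAAGGGca, with mismatches at its first and last letters. The other AAAGGG runs in windows of Zeb2 were not read against this consensus. How often such a near match occurs in mouse windows was not counted, so the match at −114 has no background.

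Among the other transcription factors of the lineage, 20 were tested, of which 3 were lower and 1 was higher at an unadjusted p up to 0.05 with the thresholds, and DESeq2 gave the same counts. Their median log2 fold change was −0.11. Over all genes the shares were 3.02% lower and 5.11% higher by unadjusted p, and 2.27% and 3.02% by DESeq2. Sox8, a SoxE protein next to Sox10, had 9936 and 10792 normalized counts in the ctrl pair against 6693 and 6482 in the Zfp276cko pair (edgeR log2 fold change −0.65, adjusted p = 0.138). Sox5, a SoxD protein that holds OPCs back from differentiating, had 1382 and 1499 against 2389 and 2425 (0.74, adjusted p = 0.117). Of 4 tested genes listed as relatives of the regulators (Zeb1, Csdc2, Zfp516 and Zfp521), 0 were lower and 1 was higher, which was the zinc finger gene Zfp521 with 464 and 468 normalized counts in the ctrl pair against 881 and 805 in the Zfp276cko pair (0.85, adjusted p = 0.123).

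Stage markers of the lineage were read beside the regulators. Of 14 genes of maturing and mature OLs, 9 were lower and 0 higher at an unadjusted p up to 0.05 with the thresholds. DESeq2 called 7 of them lower. Over all genes the shares were 3.02% lower and 5.11% higher by unadjusted p, and 2.27% and 3.02% by DESeq2. Both Zfp276cko libraries were below both ctrl libraries for 12 of the 14 and above for 1. The median log2 fold change of the list was −0.81. It was −0.97 when ctrl replicate 1 was left out and −0.49 when ctrl replicate 2 was. Ermn, a cytoskeletal protein of late OLs, had 826 and 632 normalized counts in the ctrl pair against 299 and 363 in the Zfp276cko pair. Of 11 OPC genes 3 were lower and 0 higher, DESeq2 called 3 lower, and the median was −0.39. Both Zfp276cko libraries were below both ctrl libraries for 7 of the 11 and above for 0, beside 23.7% and 26.8% of all tested genes. Pdgfra, Matn4, Sox6 and Lhfpl3 had overlapping groups, with log2 fold changes of −0.13, −0.22, 0.05 and 0.13. Neu4, a sialidase, had 5570 and 4465 against 1577 and 1427 normalized counts, and C1ql1, a secreted C1q-like protein of OPCs, had 761 and 324 against 141 and 157. Lists for other cells and states are given beside these. Of the 12 interferon response genes, 11 were higher at an unadjusted p up to 0.05 with the thresholds, DESeq2 called 9 higher, and the median was 3.83. The microglial phosphatase Ptprc had 3018 and 3101 against 5092 and 5264 normalized counts, and DESeq2 called 2 of 12 microglia genes higher. Of these 12, 4 had both Zfp276cko libraries above both ctrl libraries and 0 below. Over all tested genes the shares were 26.8% and 23.7%. Csf1r went the other way, with 11409 and 1850 against 3085 and 3016 normalized counts and overlapping groups. The median log2 fold change of the microglia list was 0.19 (0.66 with ctrl replicate 1 left out, −0.09 with ctrl replicate 2 left out). The part of these other cells and states in the lower values of Myrf, St18 and Zfp365 was not tested.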

How the data were processed

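RNA-Seq of 1° mouse OGCs at 3ddiff was used, with 2 ctrl and 2 Zfp276cko libraries (stranded mRNA kit). Reads were mapped by the authors with STAR (mm10), who deposited raw counts per gene symbol, without normalization. The methods name HTSeq count on Ensembl version 75 as the counter, and the submitters' processing notes name featureCounts 1.5.1 and STAR 2.5.4a. Counts summed to 21311469 and 21068322 in the ctrl libraries, against 25265366 and 26599809 in the others. CPM are counts per 1000000 of the TMM-scaled library size, and RPKM are CPM per kilobase. Only 2 libraries per genotype limit the precision, and intervals cover these libraries only. The replicates are separate preparations.

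Genes passing the filterByExpr function (15766) were TMM-normalized and compared with edgeR 4.0.16 (quasi-likelihood test, genotype only, R 4.3.3, Benjamini-Hochberg). Normalized counts are scaled to the mean effective library size. The thresholds for a call were 0.05 for the adjusted p, 0.6 for the absolute log2 fold change and 20 for the mean normalized count. DESeq2 1.42.0 and limma 3.58.1 (voom) served as alternatives, as did other size factors, other filters, a replicate block and leaving out each library. The fits were also run on simulated counts with the same small spread for every gene. The ctrl pair here varied more, so that run checks the code and not the calls. Lengths and positions came from the GENCODE annotation of mm10.

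The 9 regulators, the gene lists and the tests were chosen with earlier results of these data known. Named genes are the regulators, Zfp276, Sox10, up to 2 genes per list and direction with the smallest p, markers of cell types, and the 5 genes nearest to Myrf. Tmem98, Myrfl, Mag, Olig2, Smad7, Zeb1, Sin3b, Csdc2 and the neighbours of Myt1l were named besides, after their values were seen. Some listed genes are not reported here.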

Additional observations from a re-analysis of the deposited data

How the results depend on the processing

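At the thresholds, edgeR with all 4 libraries called 0 regulators lower and 0 higher, and 0 genes lower and 0 higher overall. DESeq2 called 3 regulators and 338 genes lower and 449 higher, and without independent filtering 3 regulators and 305 genes lower and 394 higher. Without a filter on low counts edgeR called 8 genes higher. Leaving out each library in turn gave 0 to 6 regulators lower and 0 to 1 higher, and 0 to 1286 genes lower and 0 to 1792 higher. The ctrl libraries set these ranges. The log2 fold change was −0.89 for Myrf, −0.88 for St18, −0.78 for Zfp365 and −1.98 for Zfp276 by DESeq2 with or without independent filtering, each then past the threshold. With single libraries left out it ranged from −1.07 to −0.66 for Myrf, −1.06 to −0.64 for St18, −0.99 to −0.51 for Zfp365, −0.87 to −0.19 for Carhsp1, −0.69 to −0.19 for Zfp488, −0.65 to −0.29 for Zfp536, −2.17 to −1.75 for Zfp276 and −0.70 to 2.59 for Myt1l, which is the value that reversed. The ends of these ranges came from the fits without a ctrl library. The cause was not tested. Zeb2 and Myt1 stayed under the thresholds in every fit run.

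The same replicate number marks no shared animals, and the deviations of same-numbered libraries were uncorrelated (r = 0.0024 over 15766 genes). With a replicate block in the edgeR fit, 0 regulators were called lower and 0 higher, and the log2 fold change of Myrf was −0.86. Each of the 9 regulators had at least 31 counts in every library, the lowest being Myt1l in ctrl replicate 1. An effect of depth was not tested.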
